A study of Mus musculus with 2 samples.

Results

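The cytosolic ribosomal protein genes encode the protein part of the ribosome, and their transcripts were read as probe sets, groups of short array oligonucleotides that are summarised into 1 signal. Members were the probe sets whose only gene symbol in the platform annotation was Rpl or Rps followed by digits and at most 1 of the letters a, x, y or l, together with Rpsa, Rplp0, Rplp1 and Rplp2. The 11 probe sets of the ribosomal S6 kinases, which are enzymes and not parts of the ribosome, were left out. This gave 105 of the 45101 probe sets and 49 of the 18193 genes with a symbol of their own. Of the 49 genes, 26 belong to the large subunit (60S, 48 probe sets) and 23 to the small subunit (40S, 57 probe sets).

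RNA came from mouse embryonic stem (ES) cells, with 1 Affymetrix MOE430 2.0 array for cells with a constitutive knockout of Eed (Eed KO) and 1 for their control cells. Eed is a subunit of Polycomb repressive complex 2, which methylates histone H3 on lysine 27. The labels give no strain, clone number or growth medium, and do not say how Eed was disrupted, whether the control is the parent line or whether feeder cells were present. As there was 1 array per group, no difference has a replicate check, no p-value was computed, and every comparison is one between these arrays.

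A ribosome is built from ribosomal RNA, made largely by RNA polymerase I in the nucleolus, and from one or a few copies of each ribosomal protein. Ribosome biogenesis factors assemble these parts. In mammals most ribosomal protein mRNAs start with a C followed by a run of pyrimidines, the terminal oligopyrimidine (TOP) sequence, through which mTOR signalling controls their translation, and such control need not change the amount of the mRNA. A few ribosomal protein genes have duplicates with restricted expression, of which Rpl39l is known from male germ cells.

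Of the 49 member genes, 43 had a promoter in the RefSeq table of assembly GRCm38.p6. The annotated start was a C followed by at least 4 C or T in 8 of the 43 (18.6%), against 2.93% of the 14452 genes of the array with a promoter in that table, counting a gene when any of its starts matched. The windows below run from 100 bases before the annotated start to 15 bases from it onward, 5′ to 3′ on the gene's strand. The first 4 are members with such a start and a brightest probe set that was level between the arrays. The last 2 are the gene with the largest ratio, Rpl39l, and its parent Rpl39. Capitals mark the pyrimidine run at the start and matches to CCGGAAG or TATAAA on either strand.
Rps10, chr17:27635230-27635344, minus strand: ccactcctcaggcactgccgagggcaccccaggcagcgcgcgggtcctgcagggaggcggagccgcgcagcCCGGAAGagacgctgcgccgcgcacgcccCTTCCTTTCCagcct
Rpl35, chr2:39005117-39005231, minus strand: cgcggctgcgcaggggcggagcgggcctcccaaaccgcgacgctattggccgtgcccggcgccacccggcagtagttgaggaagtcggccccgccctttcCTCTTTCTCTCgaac
Rpl38, chr11:114668480-114668594, plus strand: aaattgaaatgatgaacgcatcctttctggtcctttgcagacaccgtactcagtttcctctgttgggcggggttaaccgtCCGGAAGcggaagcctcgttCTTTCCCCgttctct
Rps18, chr17:33955651-33955765, minus strand: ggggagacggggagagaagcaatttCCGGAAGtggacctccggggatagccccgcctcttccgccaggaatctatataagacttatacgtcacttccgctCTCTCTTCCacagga
Rpl39l, chr16:10170128-10170242, plus strand: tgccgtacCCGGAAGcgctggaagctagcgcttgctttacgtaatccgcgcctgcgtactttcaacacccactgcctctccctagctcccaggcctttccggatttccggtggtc
Rpl39, chrX:37085208-37085322, minus strand: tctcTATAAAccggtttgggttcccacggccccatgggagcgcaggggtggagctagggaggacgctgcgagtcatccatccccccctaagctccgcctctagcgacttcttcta

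Over the whole 300-base promoters, which reach from 250 bases before the start to 50 after it, CCGGAAG, the core bound by ETS family factors, was in 21 of the 43 members (48.8%) and in 14.98% of the array's genes, on either strand. AAGATGG, part of the YY1 motif, was in 8 members (18.6%) against 7.54%. TATAAA was in 6 (13.95%) against 11.5%, and the E-box CACGTG in 4 (9.30%) against 10.2%. Among the matched members that were measured, the 21 with CCGGAAG had a median log2 ratio of Eed KO over control of 0.04 and the 21 without it one of -0.05. The 8 with a pyrimidine start and the 34 without had medians of 0.00 and -0.02. The exact start in the table decides the count of pyrimidine starts, and a start annotated a few bases off is missed.

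The ribosomal protein signals were almost the same on both arrays. Signals under 61.3, the 40th percentile of all signals of both arrays, were set to that floor, and a probe set counted as measured when it lay above the floor on at least 1 array. Of the 105 probe sets 100 were measured. Their median log2 ratio was 0.00, with 50 ratios above 1 (58% of all measured probe sets were) and 50 below, and 82 of the 100 lay within 1.25-fold, against 43.0% of all 29821 measured probe sets. The 2-fold threshold was passed upward in the Eed KO by 1 member probe set (9.22% of all measured) and downward by 4 (3.51% of all). At 1.5-fold 4 were higher and 11 lower, beside 21.4% and 10.9% of all measured probe sets.

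**Figure D1:**
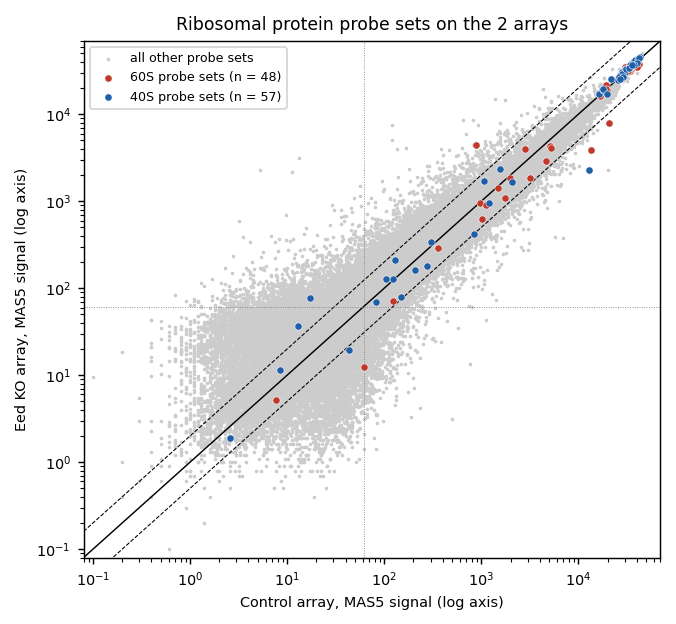
Signal of every probe set on the control array (horizontal, log axis) and the Eed KO array (vertical, log axis), with the 48 probe sets of the 60S genes in red, the 57 of the 40S genes in blue and all others in grey. The solid line marks equal signals, the dashed lines 2-fold and the dotted lines the floor of 61.3, which was not applied to the points. Most members sit on the solid line at the top right. Of the members above the floor on both arrays, 1 lies above the upper dashed line and 4 below the lower one. Probe sets of Rps3 (17.2 and 76.6) and Rpsa (12.8 and 36.9) also lie above the upper line. Those of Rpl3l (62.1 and 12.5) and Rps6 (43.9 and 19.6) also lie below the lower line. Each of these has a signal under the floor.

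The members held a large share of the array's light. They summed to 5.88% of all signal on the control array and 5.98% on the Eed KO array while making up 0.233% of the probe sets. Among the 100 brightest probe sets 32 were members. A further 45 carried several symbols of which 1 fits the same name pattern, and these are not named here. In all 110 probe sets were of that kind, for 43 such symbols, of which 28 have no probe set of their own among the members. The 106 of them that were measured had a median log2 ratio of 0.05. Of these 2 were at least 2-fold higher (9.22% of all measured probe sets) and 1 lower (3.51% of all). With them the shares were 12.7% and 13.1%.

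By gene, each read from its brightest probe set, 48 of the 49 were measured. The exception was Rps16, whose probe set read 2.6 and 1.9. The median log2 ratio over the 48 genes was -0.01, against 0.12 over all 13794 measured genes, and 23 genes had a ratio above 1 (58.9% of all did). The members' median became 0.06 when an intensity-dependent trend was removed. At least 2-fold higher was 1 gene, Rpl39l (10.8% of all measured genes were), and 0 were at least 2-fold lower (3.27% of all). At 1.5-fold Rps25 was added to the higher ones, with still 0 lower, where 23.3% and 10.2% of all genes were. Within 1.25-fold lay 45 of the 48 genes, against 41.9% of all. With the array medians made equal, which moved the all-gene median from 0.12 to -0.16, the members' median was -0.31. The members' median was 0.13 below that of all genes in the deposited scaling, 0.15 below it with equal medians and 0.03 below it with the trend removed.

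**Figure D2:**
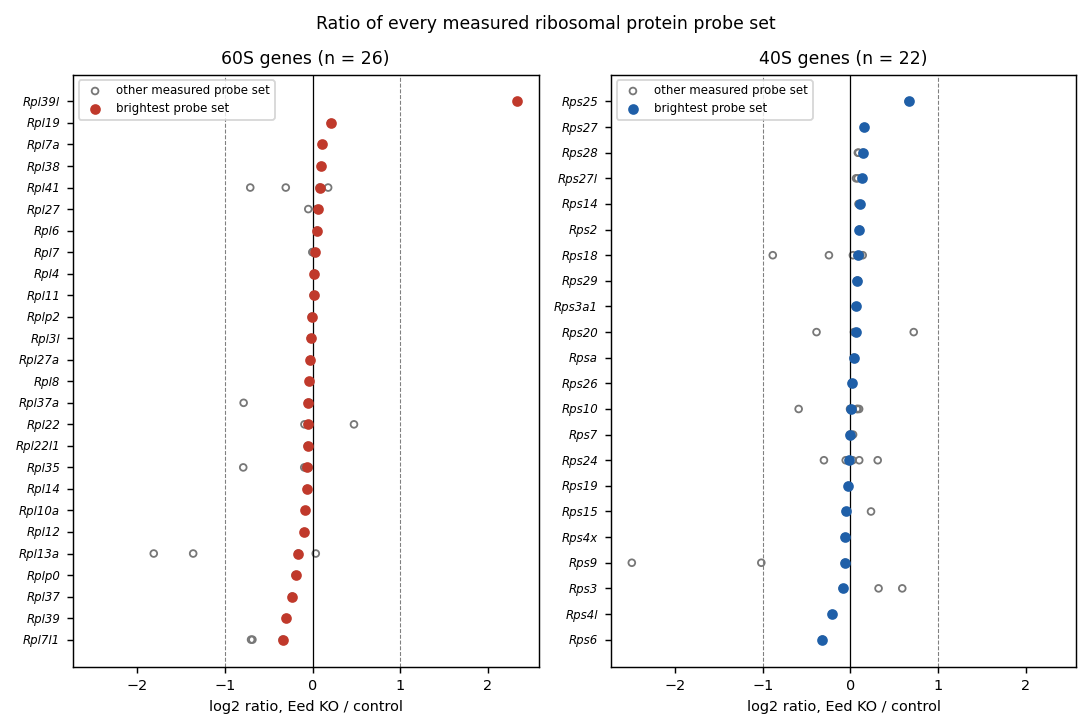
Log2 ratio of Eed KO over control (horizontal) for each measured probe set of the 26 genes of the 60S subunit and the 22 measured genes of the 40S subunit (rows, ordered by the brightest probe set). Filled points are the brightest probe set of a gene, open points its others, and dashed lines mark 2-fold. The filled points lie in a narrow column at 0 apart from Rpl39l at 2.34 and Rps25 at 0.66.

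Brightness went with this narrow spread. Of the 48 genes 37 had a mean log2 signal of 14 or more, that is, around 16384 or above, where the highest signals of the arrays were 45140.1 and 50243.6. The 68 member probe sets in that range had log2 ratios from -0.21 to 0.24 with an SD of 0.09, and all 68 were within 1.25-fold. Over all 336 probe sets of that brightness, members included, the SD was 0.19 and 305 were within 1.25-fold. Between 12 and 14 on the log2 scale the SD of all measured probe sets was 0.49, and between 10 and 12 it was 0.62. In these ranges the members spread more widely, with SDs of 0.97 over 5 probe sets and 0.90 over 11. Within 1.25-fold lay 1 of those 5 and 4 of those 11, against 53.3% and 45.9% of all measured probe sets. Whether saturation of the brightest probe sets narrowed the members' ratios was not tested. The 16 dimmest measured member probe sets, at a mean log2 signal under 10, had a median of -0.27 and an SD of 0.49, where all measured probe sets of that range had a median of 0.17.

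**Figure D3:**
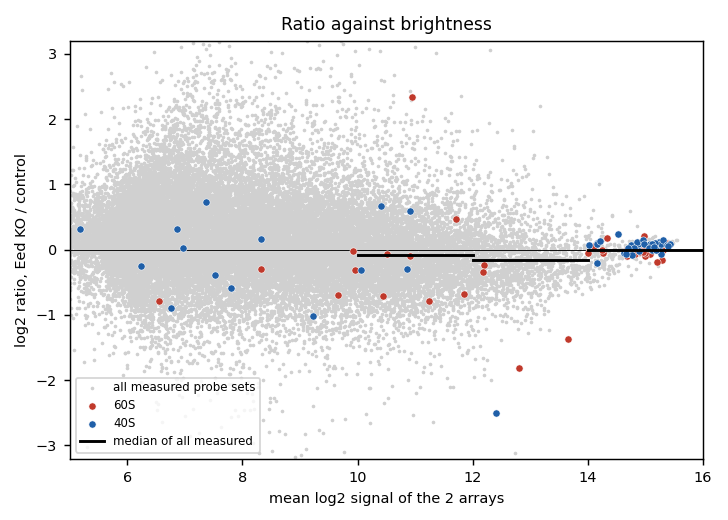
Log2 ratio of Eed KO over control (vertical) against the mean log2 signal of both arrays (horizontal) for all measured probe sets (grey), 60S (red) and 40S (blue) members. Black bars are the medians of all measured probe sets between 10 and 12, 12 and 14, and 14 and 16, at -0.08, -0.16 and 0.00. The members crowd at the right end around 0, and those between 12 and 14 all lie below it.

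Both subunits were near equality. The 60S genes had a median log2 ratio of -0.03, with 10 of 26 ratios above 1, and the 40S genes one of 0.03, with 13 of 22. In the brightest range the 30 probe sets of 60S genes had a median of -0.02 and the 38 of 40S genes one of 0.07, with 13 of 30 and 28 of 38 ratios above 1. With 1 array per group the spread of such a difference between cultures is not known. The signs of both medians depended on the scaling: they were -0.34 and -0.28 with equal array medians and 0.03 and 0.08 with the trend removed, with the 40S genes above the 60S genes in each.

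Among the 60S proteins, the stalk recruits the elongation factors to the ribosome. Its base protein gene Rplp0 read 40182.2 on the control array and 35118.1 on the knockout array, a log2 ratio of -0.19. Rplp2, one of the acidic stalk proteins, read 40446.8 and 40201.8. Rpl12, which binds beside the stalk, read 1997 and 1870.6. In the deposited scaling all 3 measured stalk genes were slightly lower, and none by 1.5-fold. With the trend removed Rplp2 was above 0, at 0.05.

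Rpl11, which with Rpl5 and the 5S RNA forms the particle that can bind the p53 regulator Mdm2, read 26180.6 and 26424.5. Rpl5 is not among the members, as its probe sets carry several symbols. At the exit of the tunnel through which the new protein leaves, Rpl19 read 29897.6 and 34568.1, a log2 ratio of 0.21 and the second highest of the 60S genes. Rpl4, whose loop lines the tunnel, read 38694.9 and 39272.3, and Rpl35 read 35411.6 and 33951.3. In their brightest probe set these genes stayed within 1.25-fold. A dim probe set of Rpl35 went from 122.7 to 70.9.

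Of the remaining 60S genes at the upper end, Rpl7a read 40286.3 and 43411.8, Rpl38 read 39223.6 and 42000.6, and Rpl41, which encodes a very short basic peptide, read 37641.3 and 39802.9. Their log2 ratios were 0.08 to 0.11 and turned below 0 with equal array medians. The mean over the probe sets of Rpl41 was also below 0, at -0.19. At the lower end were Rpl37, at 5083.2 and 4324 (log2 ratio -0.23), and Rpl13a, at 42036.7 and 37533.7 (-0.16). Rpl13a is also known as a target of the interferon response, where its protein leaves the ribosome to silence translation.

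The 40S genes had no 2-fold difference in their brightest probe set. Rps25, a protein of the 40S head used by viral internal ribosome entry sites, stood apart at 1072.4 for control cells and 1699.5 for Eed KO cells, a log2 ratio of 0.66 (1.58-fold), and of 0.36 with equal array medians. Rps28, also in the head, read 38361.1 and 42294.6 (0.14), and Rps14, which lines the platform, read 36896.3 and 39857.9 (0.11). Of the 9 measured head genes 6 had a ratio above 1, with a median of 0.06. Rpsa, the laminin receptor homologue, read 35836.4 and 36812.2.

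On the lower side Rps6, the substrate of the ribosomal S6 kinases, read 1190.3 and 954, a log2 ratio of -0.32. Rps3, at the mRNA entry, read 28647.9 and 26954.2 (log2 ratio -0.09), but its dimmer probe sets were higher, with log2 ratios of 0.59 and 0.32. The latter went from 17.2, under the floor, to 76.6. The mean log2 ratio over the 3 was 0.28. Rps4x, encoded on the X chromosome, read 40459.1 and 38763 (-0.06). The S6 kinase genes themselves, 6 of them measured, had 3 ratios above 1 and 3 below. Of these 0 were at least 2-fold higher (10.8% of all measured genes) and 0 lower (3.27% of all). The most different were Rps6kl1 at 366.8 and 198.3, Rps6ka6 at 4205.2 and 2339.8 and, in the other direction, Rps6kc1 at 124.1 and 220.1. With equal array medians or on the poly-A spikes 2 of them were at least 2-fold lower, and 1 was after quantile normalization or trend removal.

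For 9 genes the brightest probe set with a symbol of its own was dim, with a mean log2 signal under 12. They were Rpl12, Rpl14, Rpl27a, Rpl39, Rpl39l, Rpl3l, Rps6, Rps25 and Rps27. For 7 of them further probe sets carry the gene's symbol with others, so that the values of Rps6, Rps25, Rpl12, Rpl14, Rpl27a, Rpl39 and Rps27 here are those of a side probe set. The largest 40S ratio, that of Rps25, is one of these.

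The clearest difference was in a duplicate. Rpl39l, the germ cell counterpart of Rpl39, which lies in the wall of the exit tunnel, had a signal of 879.8 without and 4450.7 with the knockout. That is 5.06-fold higher, a log2 ratio of 2.34, which ranged from 2.03 to 2.43 over the alternatives tried. It rests on 1 probe set, of the kind designed for a single transcript. Its parent Rpl39 read 354.6 and 287.8 in the probe set with a symbol of its own, a log2 ratio of -0.30. Among genes read from their brightest probe set, Rpl39l departs most from the group. That dim probe set of its parent was slightly lower.

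The other duplicates did not follow it. Rpl22l1, the counterpart of Rpl22, read 19893 and 19145, and Rpl22 read 33622.5 and 32416.2, with log2 ratios of -0.06 and -0.05. A dimmer probe set of Rpl22 had a log2 ratio of 0.47, and the mean log2 ratio over its probe sets was 0.11. Rps27l, a counterpart of Rps27 known as a p53 target, read 18034.1 and 19736.4 (0.13). Rps27 read 301.1 and 336.4 (0.16). Rps4l, a duplicate of Rps4x, read 19625.4 and 16977.3 (-0.21).

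Rpl7l1, a relative of Rpl7 with a role in ribosome assembly, was the lowest 60S gene. Its 3 probe sets read 5198.9 and 4102.9, 4678.5 and 2906.8, and 1028.5 and 632.3, with log2 ratios of -0.34, -0.69 and -0.70. All 3 were lower in the Eed KO, while Rpl7 read 32479.6 and 33115.2. Rpl3l, the heart and skeletal muscle counterpart of Rpl3, read 62.1, just above the floor, for control cells and 12.5, under the floor, for Eed KO cells. Of the 6 measured duplicates 1 was at least 2-fold higher (16.7%, against 10.8% of all measured genes) and 0 lower (3.27% of all). Without them, 0 of the other 42 measured genes differed by 2-fold, and their median was 0.00.

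The 4 lower probe sets belonged to Rps9 and Rpl13a, and in each gene a brighter probe set stayed level. Rps9, a 40S protein that helps keep decoding accurate, had 3. Probe set 1433689_s_at read 26537.5 and 25421.6 (log2 ratio -0.06). Probe set 1434624_x_at went from 12855.4 to 2278.8, 5.64-fold lower. Probe set 1426958_at read 846.8 and 418.3, a log2 ratio of -1.02. The mean over the 3 was -1.19, so that Rps9 counted as 2-fold lower as a mean over probe sets and as level by its brightest one.

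Rpl13a had 4 probe sets. Its bright pair went from 42036.7 to 37533.7 and from 28264.2 to 28998.7. Probe sets 1455001_x_at and 1433928_a_at went from 20582.7 to 8002.7 and from 13457.4 to 3830, with log2 ratios of -1.36 and -1.81. The spread within the gene, 1.85 on the log2 scale, was second to that of Rps9, 2.43. Which transcripts these probe sets bind was not tested.

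**Figure D4:**
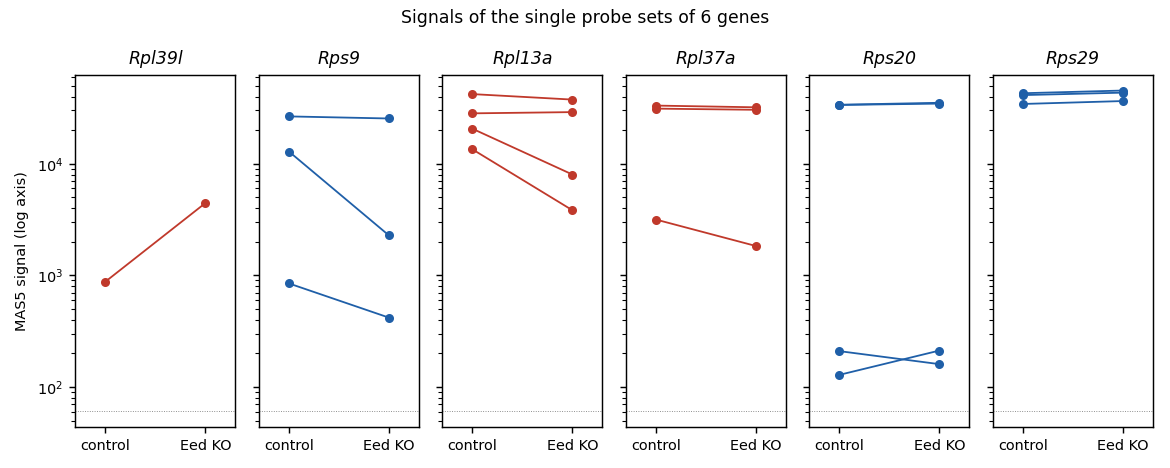
Signal (vertical, log axis) on the control and Eed KO arrays for each probe set of 6 genes, 1 line per probe set, 60S genes in red and 40S genes in blue, with the floor of 61.3 dotted. In Rps9 and Rpl13a the brightest line is level while 2 dimmer lines slope down, in Rpl39l the single line goes from 879.8 to 4450.7, and in Rps29 all 3 lines are level.

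Ribosomal protein genes have many near-identical pseudogene copies. Probe sets ending in _x_at or _s_at are those the maker marks as able to bind more than 1 transcript. Within 1.25-fold were 34 of the 39 measured _x_at ones and 2 of the 3 _s_at ones. So were 26 of the 28 ending in _a_at and 20 of the 30 ending in _at alone. Any share of the copies in these signals was not tested. The level probe set of Rps9 ends in _s_at, and its probe set ending in _at alone read 846.8 and 418.3. Elsewhere the probe sets of 1 gene agreed more closely. In 20 genes at least 2 were measured, and in 7 of these all log2 ratios lay within 0.2 of each other. Rps29 had 3 with log2 ratios of 0.07 to 0.09, Rps28 had 3 with 0.09 to 0.14, and Rpl7 had 3 with 0.00 to 0.03. In 4 genes the spread was over 1. Besides Rps9 and Rpl13a these were Rps20 and Rps18, where the outlying probe sets were dim. Rps20 had 2 at 33746.7 and 33598.9 in the control with log2 ratios of 0.06 and 0.04. Its 2 dim ones went from 128.5 to 212.1 and from 209.6 to 160.3. In Rps18 the dim probe set furthest out went from 147.7 to 79.9, and the gene's mean was -0.13 where its brightest probe set had 0.08. In Rpl37a the dimmest of 3 went from 3162.2 to 1833 while the others had log2 ratios of -0.03 and -0.05. In Rps10 a dim probe set went from 274 to 181.9.

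The ribosomal protein genes were then set beside other genes of the translation apparatus, which go with them in making ribosomes. The counts below stand beside the shares over all 13794 measured genes. Of these 58.9% had a ratio above 1, 10.8% were at least 2-fold higher and 3.27% lower. Of 56 measured ribosome biogenesis factors 53 had a ratio below 1, with 0 at least 2-fold higher and 4 lower, and a median log2 ratio of -0.44. All measured probe sets of 10 to 12 and 12 to 14 in mean log2 signal, which spans most of these genes, had medians of -0.08 and -0.16. Nolc1, a nucleolar chaperone of snoRNPs, read 6290.2 and 2683.7. Dkc1, the pseudouridine synthase of box H/ACA snoRNPs, read 5790.2 and 2728.7. Nop2, an rRNA methyltransferase, read 3670.6 and 1804.2, and Rpf2, an assembly factor of the 5S particle, read 2896.7 and 1433.9. The count of 4 depended on the scaling, being 1 after quantile normalization and 9 with equal array medians, while the median was below 0 in each scaling tried.

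Some probe sets of these genes differed less, as in Nolc1, where 1 of 3 went from 1362.3 to 1118.7, and in Rpf2, where 1 of 4 went from 310.2 to 329.8. The 3 Dkc1 probe sets had log2 ratios of -0.93, -1.09 and -1.25. The biogenesis promoters held the E-box CACGTG in 12 of 49 genes (24.5%), against 4 of 43 ribosomal protein genes and 10.2% of the array's genes. A pyrimidine start was found in 0 of the 49.

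RNA polymerase I genes were lower in 11 of 14 cases, with a median of -0.32, which ran from -0.63 to -0.20 over the scalings, and 2 at least 2-fold lower. Polr1a, which encodes the largest subunit, read 1594.6 and 621.5, and its other measured probe sets had log2 ratios of -0.90 and -0.19. Polr1e read 1030.7 and 473.1. Ubtf, the factor that opens ribosomal DNA for transcription, read 2208 and 2201. Mycn and Myc, which encode transcription factors known to raise biogenesis genes, read 9078.6 and 2395.7, and 1204.5 and 580.5. The other probe sets of Mycn had log2 ratios of -2.12 and -0.08. Their partner Max read 447.8 and 516.6. Any link of Mycn, Myc or the E-box to the signals of the biogenesis genes was not tested.

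A further list held mRNAs known to carry a TOP sequence, of translation factors and of other proteins such as Npm1, Nap1l1 and Hnrnpa1. Of its 17 measured genes 4 had a ratio above 1 and 0 differed by 2-fold, with a median of -0.16. That median was -0.03 after quantile normalization, -0.05 with the trend removed and -0.47 with equal array medians. The elongation factor gene Eef1a1 read 40841 and 44704, Eef2 read 20698.2 and 20481.2, and Npm1 read 36066.1 and 36427.5. The initiation factor genes Eif3l and Eif4b were lowest, at 13483 and 9272.3, and 9351.8 and 6531.7. Of 25 other initiation factors 0 differed by 2-fold, with a median of -0.06 that turned to 0.03 after quantile normalization and 0.05 with the trend removed. The most different were Eif4ebp1, the mTOR target that holds back cap-dependent translation, at 10945.8 and 15807.8, and Eif2b1 at 3002.1 and 2109.3.

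Mitochondrial ribosomal protein genes, 76 in number and all measured, had a median of -0.14, with 57 ratios below 1, 0 at least 2-fold higher and 1 lower, Mrps27 (1249.9 and 578.9). The median was -0.06 with the trend removed and -0.45 with equal array medians, where 7 were lower, and 5 were on the poly-A spikes. Of 9 measured genes of the p53 pathway 1 (11.1%) passed 2-fold upward, near the 10.8% of all measured genes. This was Cdkn2a, at 43.1 (under the floor) and 174.2, at least 2.84-fold higher when set against the floor. Cdkn1a, the cell cycle inhibitor induced by p53, read 1373.1 and 2094.2 in one probe set and 611.6 and 620.4 in the other, and Mdm2 read 2982 and 2571.9. Fau, a ribosomal protein gene outside the name rule, read 25280.5 and 23635.3.

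**Figure D5:**
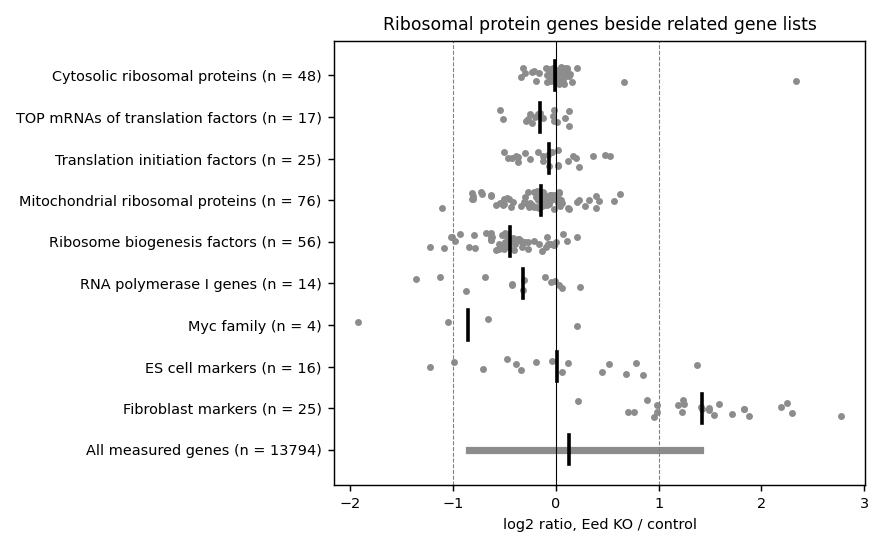
Log2 ratio of Eed KO over control (horizontal) of each measured gene, read from its brightest probe set, in the ribosomal protein genes and 8 related or marker lists (rows), with the median as a black bar and dashed lines at 2-fold. For all 13794 measured genes the grey bar spans the 5th to the 95th percentile. Ribosomal proteins centre at -0.01, ribosome biogenesis factors at -0.44 and fibroblast markers at 1.43.

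Markers of other cells differed between the arrays. Of all measured genes 58.9% had a ratio above 1, 10.8% were at least 2-fold higher and 3.27% lower. The ES cell markers, 16 of 16 measured, had 8 ratios above 1 and 8 below, 1 at least 2-fold higher and 1 lower, with a median log2 ratio of 0.01. Klf4 (3639.3 and 9409.2) and Nanog (8006.9 and 14393.2) were highest by ratio, Dppa4 (7304 and 3128.6) and Dppa3 (2680.4 and 1345.7) lowest, and Pou5f1 read 12947.7 and 11351.5. Of 25 measured fibroblast markers all 25 had a ratio above 1 and 18 were at least 2-fold higher, and their summed signals were 32193.1 for control and 67561.6 for Eed KO cells. The markers Fap and Lum were under the floor on both arrays. Endoderm markers were at least 2-fold higher in 7 of 14, with sums of 11923.1 and 20620.9. The other way went 2, Dab2 (569.2 and 420.1) and Lamb1 (2995.9 and 2648.6). Sparc (4653.9 and 9189.2), the brightest of them, and Pdgfra are in the fibroblast list as well. Trophoblast markers were at least 2-fold higher in 6 of 10, with sums of 9282.1 and 17800.3. Here 2 had a ratio below 1, Ascl2 (343.1 and 186.8) and Tfap2c (1475.1 and 1065.3), and Elf5 passed the floor on the Eed KO array only. The trophoblast marker Cdx2 and the endoderm marker Ttr were under the floor on both arrays. Any part of fibroblast, endoderm or trophoblast cells in the signals of Rpl39l, the biogenesis genes or any other gene here was not tested. In such a sample fewer cells of a type and less RNA per cell cannot be told apart, and since every array was scaled to the same mean, a change in the total mRNA per cell would not show.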

How the data were processed

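The authors deposited 1 MAS5 signal intensity per probe set and array, on a linear scale, per the submitters' processing notes and the values. Trimming 2% of the 45101 signals at either end left a mean of 500.00 for each array, so the arrays were on 1 scale. No version, detection call or scan file was used here. Symbols came from GEO's platform annotation, which can be old. It gave several symbols for 932 probe sets, which stayed unnamed, and no symbol for 9160 besides the 64 controls.

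Ratios were taken on the log2 scale above a floor of 61.3 (40th percentile without controls). Each gene was represented by its brightest probe set, by mean log2 signal. With 1 array per group nothing was tested, and the number of arrays limits the precision. A difference was counted at 2-fold. Named were the 5 highest and 5 lowest genes of each subunit, genes with a probe set past 2-fold, duplicates and their parents, Rpsa, Rplp0, Rplp1, Rplp2, Rpl5, Rpl11, Rps27a and Rps6 where measured, and up to 4 of the most different genes per list. Rpl4, Rpl12, Rpl14, Rpl27a, Rpl35, Rpl37a, Rps10, Rps16, Rps18, Rps20, Rps29 and other genes beyond these were chosen after their values were seen. The members and lists were chosen with earlier results of these data known. Protein sequences were not analysed here. Calculations used Python 3.11.15, pandas 2.3.3 and statsmodels 0.14.6 (lowess span 0.3), and were tested on simulated data. Alternatives covered scaling, floor, pseudocount, probe set choice, fold, bright probe sets and members.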

Additional observations from a re-analysis of the deposited data

How the results depend on the processing

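Under the 16 alternatives, 240 of 358 values of named ribosomal protein genes were counted as unchanged and 112 as moved. A further 6 newly passed the fold, and 0 past it changed sign. For genes not past the fold, unchanged meant a log2 shift of at most 0.065. That is the SD of a log2 ratio between the brightest probe sets of 17 genes, all bright. Over all 20 genes with at least 2 measured probe sets it was 0.41. For Rpl39l unchanged meant still past the fold. Genes near 0 took either sign with the scaling. Rpl39l stayed at least 2-fold higher wherever it was kept. The cause of the changes below was not tested beyond what each alternative does by construction. The median log2 ratio of the ribosomal protein genes was -0.31 with equal array medians, -0.078 on the hybridization spikes, -0.20 on the poly-A spikes and 0.059 with the trend removed. In the first 3 of these the 60S median was -0.34, -0.11 and -0.23 and the 40S median -0.28, -0.047 and -0.17. Probe sets at least 2-fold higher numbered 2 with the floor at the 25th percentile, 4 at 1.5-fold, 0 without the duplicates and 3 with the several-symbol probe sets, an alternative chosen after seeing the data. Lower ones numbered 9 with equal array medians, 11 at 1.5-fold, 2 at 3-fold and 2 without probe sets ending in _x_at or _s_at. Genes higher numbered 2 at 1.5-fold and 0 without the duplicates. Genes lower numbered 1 with the floor at the 25th percentile (Rpl3l), 1 as the mean over probe sets (Rps9), 1 without _x_at and _s_at (Rps9), and 2 without the brightest probe sets of each array (Rps9 and Rpl13a), which took out their brightest ones and left 27 genes. There the members held 0.837% (control) and 0.743% (Eed KO) of the summed signal. The biogenesis median was -0.36 after quantile normalization, -0.75 with equal array medians, -0.35 with the trend removed, -0.52 on the hybridization spikes and -0.64 on the poly-A spikes, and its lower genes numbered 1, 9, 1, 6 and 7, 2 as the mean over probe sets, 15 at 1.5-fold and 0 at 3-fold. No paired analysis was possible because each group has 1 array. Dim signals limit the values of 9 genes, and whether the top of the signal range limits those of the 37 brightest was not tested.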
